A study of Mus musculus with 2 samples.

Results

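The genes described are TIM and TAM receptors, families through which cells bind phosphatidylserine on dying cells, and soluble proteins that bridge it to receptors. They were chosen by symbol: Havcr1, Havcr2, Timd2 and Timd4 of the TIM family, the receptor tyrosine kinases Mertk, Axl and Tyro3, and the ligands Gas6, Pros1 and Mfge8. Of these 10 genes, 9 had a row among the 20002 genes analysed, and Timd4 was not analysed here. RNA-seq of whole mouse kidney compared 1 library from control mice with 1 library from Reg-2 CKO mice, to examine what lower Regnase-2, an RNase of the Zc3h12 family, does to kidney transcripts. No difference below therefore has a replicate check, and every interval covers counting error only.

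The labels and the study's methods call the Reg-2 CKO mice a conditional knockout of the proximal tubule, but the procedure given is a knockdown. AAV9 carrying an shRNA against Regnase-2 was injected into the tail vein at 11 weeks of age, and the methods describe this virus as preferring proximal tubules. The control mice are described as given empty AAV9 vectors in the methods of injection and as given control shRNA in the methods of sequencing. The age at harvest is given as 14 weeks for sequencing and as 16 weeks for injection. The methods name C57BL/6J as the strain purchased, and the labels name no further treatment for either group. Sex and the number of mice behind each library were not given in the sources used here.

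The deposited values were whole numbers that started at 35 in the control column and at 51 in the CKO column, so 34 and 50 were subtracted and the rest was read as reads, which is an inference. The libraries then held 38851231 and 43588721 reads. The values carry the name of normalized counts, and treating them as not scaled between the libraries is an inference too. Counts of the CKO library were brought to the control scale with a factor of 0.667, the median gene ratio between the columns, before ratios were taken as log2((CKO + 1)/(control + 1)). Zc3h12b, the gene of Regnase-2, had 47 control reads and 59 CKO reads, a log2 ratio of -0.25 with a 95% interval of -0.83 to 0.33, and 0.16 with equal totals of reads and 0.42 with the values as deposited. With so few reads, the RNA of the targeted gene did not check the label; the methods assessed the knockdown by immunofluorescence, which was not analysed here. The text speaks of the library labelled CKO; its reads are called CKO reads and those of the other library control reads, given before scaling and with the control first.

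Cells that die by apoptosis expose phosphatidylserine on their outer leaflet, where it acts as a signal for uptake. Several TIM proteins bind this lipid directly through a pocket in their immunoglobulin domain. The TAM kinases reach it through Gas6 and protein S, and integrins reach it through Mfge8. Timd2 is listed as a TIM family member, and whether its protein binds the lipid was not tested. Havcr1 encodes kidney injury molecule 1, which injured proximal tubule cells display and which lets these epithelial cells engulf dead neighbours. Tubule cells can thus act beside macrophages, the usual phagocytes of the kidney.

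Of the 9 genes measured, Havcr1, Havcr2, Axl and Pros1, 4 in all, exceeded the control by 2-fold or more in the library labelled CKO, and 0 lay below it by as much. The filter asked for 10 scaled reads or more in either library and was passed by 17469 genes, of which 13.4% were higher by 2-fold or more and 5.35% lower by 2-fold or more. The median log2 ratio was 0.33 over the 9 genes and 0.022 over all genes. Each of the 9 genes passed the filter on reads through its control value alone. The 4 higher genes included members of the TIM receptors, the TAM kinases and the ligands.

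**Figure D1:**
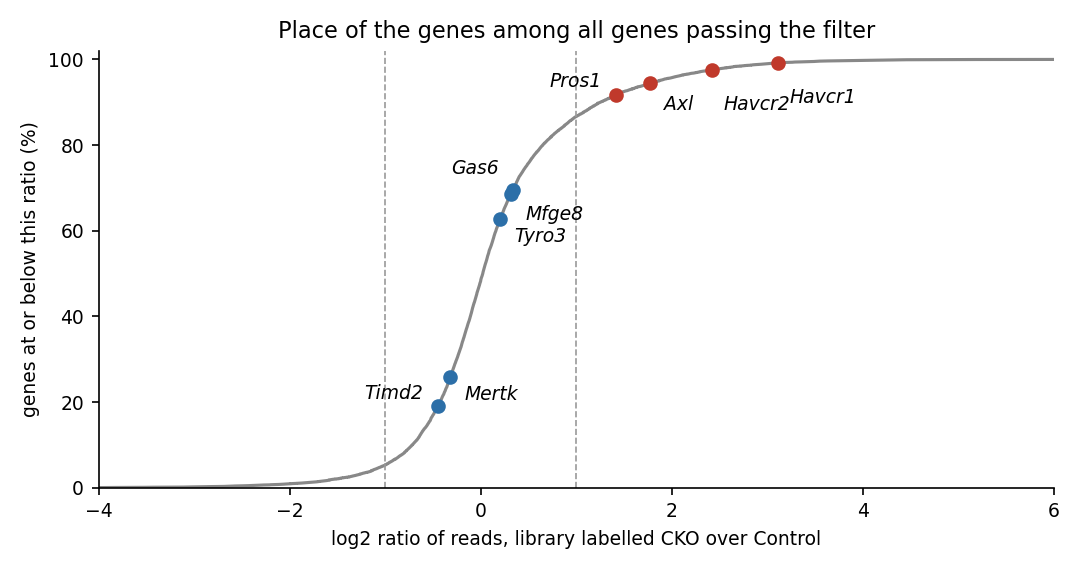
Each point is 1 of the 9 genes on the curve of all 17469 genes that passed the filter, with the log2 ratio of CKO over control on the x axis and the percent of genes at or below it on the y axis. Red points are at least 2-fold higher (dashed lines mark 2-fold), from Pros1 at 1.42 to Havcr1 at 3.12; Timd2 and Mertk lie below 0 under this scaling, but Mertk lies above 0 with equal totals and both do with the values as deposited.

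Among the TIM receptors, Havcr1 (Entrez 171283, chr11:46735080-46779578, plus strand, GRCm38) had 1639 control reads and 21332 CKO reads. After scaling it was 8.68-fold higher (95% Clopper-Pearson interval 8.25 to 9.13), a log2 ratio of 3.12. It ranked 142 from the top among the genes that passed the filter, so 99.2% of them had a lower ratio. Under the other scalings, constants and pseudocounts tried its log2 ratio lay between 3.09 and 3.68.

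Havcr2 (Entrez 171285, chr11:46454935-46481255, plus strand) encodes TIM-3, found on T cells, dendritic cells and macrophages. It had 13 control reads and 111 CKO reads. The log2 ratio was 2.42, and the fold of 5.69 had a wide interval, 3.20 to 11.0, because the control library held few reads. That interval leaves out the inferred constants: the log2 ratio was 1.75 with the values as deposited and 1.19 when these were scaled by the median gene ratio. The gene was scarce in both libraries.

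Timd2 (Entrez 171284, chr11:46668960-46707061, minus strand) encodes TIM-2, a rodent receptor that takes up H-ferritin and is present in kidney. It had 2990 control reads and 3278 CKO reads. The log2 ratio was -0.45 with an interval of -0.52 to -0.38, and it was -0.033 with equal totals of reads and 0.14 with the values as deposited. Timd2 was thus on the other side of 0 from Havcr1 under the scaling used here, and its direction depended on that scaling.

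The ratio of Havcr1 to Timd2 reads within a library needs no scaling. It was 0.548 (control) and 6.51 (library labelled CKO), a change of 11.9-fold (95% exact conditional interval 11.1 to 12.7). Per kb of the longest transcript, Timd2 stood at 1022 reads and Havcr1 at 807 for the control, against 1120 and 10508 for the library labelled CKO, so the order of the pair was reversed. The transcripts of this pair share sequence: of 2306 distinct words of 31 bases in Havcr1 transcripts and 3470 in those of Timd2, 135 were common to both. No other pair among the 10 genes shared such a word. How the counting treated reads that fit both genes was not given in the sources used here, so their separate values carry that uncertainty.

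The TIM genes form a cluster on chromosome 11, where Havcr2 to Timd4 span 389 kb and the end of Timd2 lies 28.0 kb before the start of Havcr1. Genes of this stretch did not share a direction under the median gene ratio, whereas with the values as deposited Timd2 too was above 0, at 0.14. Within 300 kb of Havcr1, 7 annotated genes including Havcr1 had a row and 6 passed the filter. Besides the TIM genes, the highest log2 ratio among those that passed was 0.12, for Med7, a subunit of the Mediator complex, with 647 control reads and 1053 CKO reads. Gm12168 had 14 and 22 reads, a log2 ratio of 0.063. Gm12174, which starts 7.26 kb before Havcr1, stood at 151 and 234 reads, with a log2 ratio of 0.047. These neighbours were named after their values were seen.

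**Figure D2:**
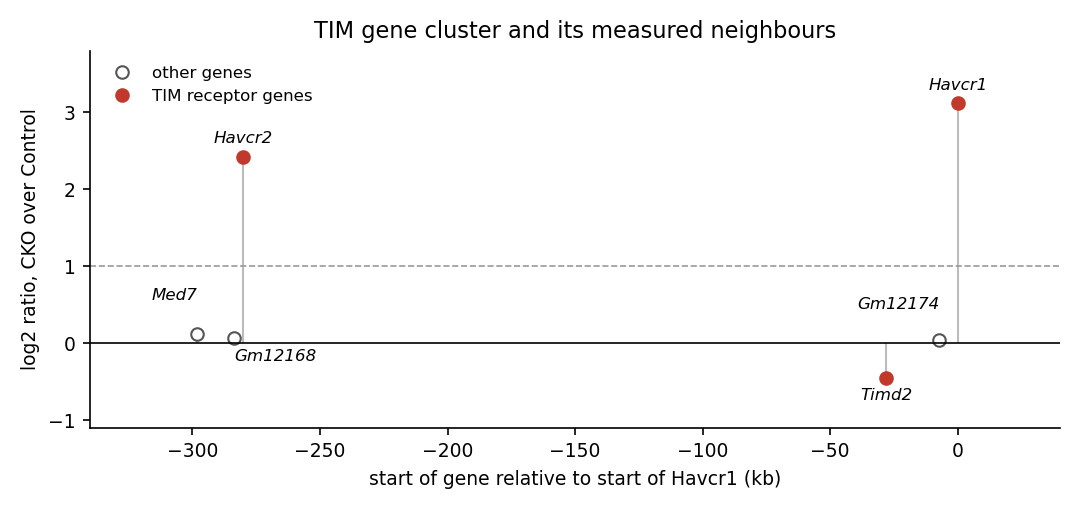
Log2 ratio of CKO over control (y axis) for the 6 genes that passed the filter within 300 kb of Havcr1, by the distance of each gene's start from that of Havcr1 in kb (x axis). Red points are TIM genes: Havcr1 at 3.12 and Havcr2 at 2.42 stand above the dashed 2-fold line, while Timd2 lies at -0.45 and would lie at 0.14 with the values as deposited.

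Among the TAM kinases, Axl (Entrez 26362, chr7:25757273-25788705, minus strand), a receptor that binds Gas6, had 922 control reads and 4734 CKO reads. It was 3.42-fold higher after scaling (95% interval 3.19 to 3.68), a log2 ratio of 1.77. Of all genes that passed the filter, 94.4% had a lower ratio.

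Mertk (Entrez 17289, chr2:128698956-128802894, plus strand) serves the uptake of dead cells by resident macrophages and by the retinal pigment epithelium. It had 1597 control reads and 1921 CKO reads. The log2 ratio was -0.32, with an interval of -0.41 to -0.22, but 0.10 with equal totals of reads and 0.27 with the values as deposited. Its direction therefore depended on the scaling, and it was within 2-fold under each.

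Tyro3 (Entrez 22174, chr2:119797733-119818104, plus strand), the TAM kinase best known from the nervous system, had 85 control reads and 147 CKO reads. Its log2 ratio of 0.20 had an interval of -0.19 to 0.61, so no difference was detectable at this depth under the scaling used here. Equal totals of reads put it at 0.62, above that interval, and the values as deposited at 0.72. Whether a difference was detectable thus depended on the scaling too. Within the libraries, the ratio of Axl to Mertk reads was 0.577 (control) and 2.46 (library labelled CKO), a change of 4.27-fold (interval 3.87 to 4.71). The balance between these kinases thus differed between the libraries whatever the scaling.

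Among the ligands, Gas6 (Entrez 14456, chr8:13465374-13494490, minus strand), a vitamin K-dependent protein that binds all TAM kinases, had 9153 control reads and 17311 CKO reads. Its log2 ratio was 0.33, with an interval of 0.30 to 0.37. Gas6 was above 0 but within 2-fold. Its exons overlap those of Tmem255b on the opposite strand by 34 bases; the library kit keeps strand, but the strand setting of the counting was not given in the sources used here.

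Pros1 (Entrez 19128, chr16:62854307-62929346, plus strand) encodes protein S, an anticoagulant cofactor and a ligand of Mertk and Tyro3. It had 666 control reads and 2675 CKO reads. It was 2.68-fold higher (interval 2.46 to 2.92), a log2 ratio of 1.42. The ratio of Pros1 to Gas6 reads within a library was 0.0728 (control) and 0.155 (library labelled CKO), a change of 2.12-fold (interval 1.94 to 2.32).

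Mfge8 (Entrez 17304, chr7:79133768-79149060, minus strand) encodes the protein that links phosphatidylserine to integrins. It had 2650 control reads and 4946 CKO reads, a log2 ratio of 0.32 (interval 0.25 to 0.38). Gas6 and Mfge8 kept their proportion, with 3.45 Gas6 reads per Mfge8 read for the control and 3.50 for the library labelled CKO. The change was 1.01-fold, with an interval of 0.960 to 1.07 that includes 1.

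**Figure D3:**
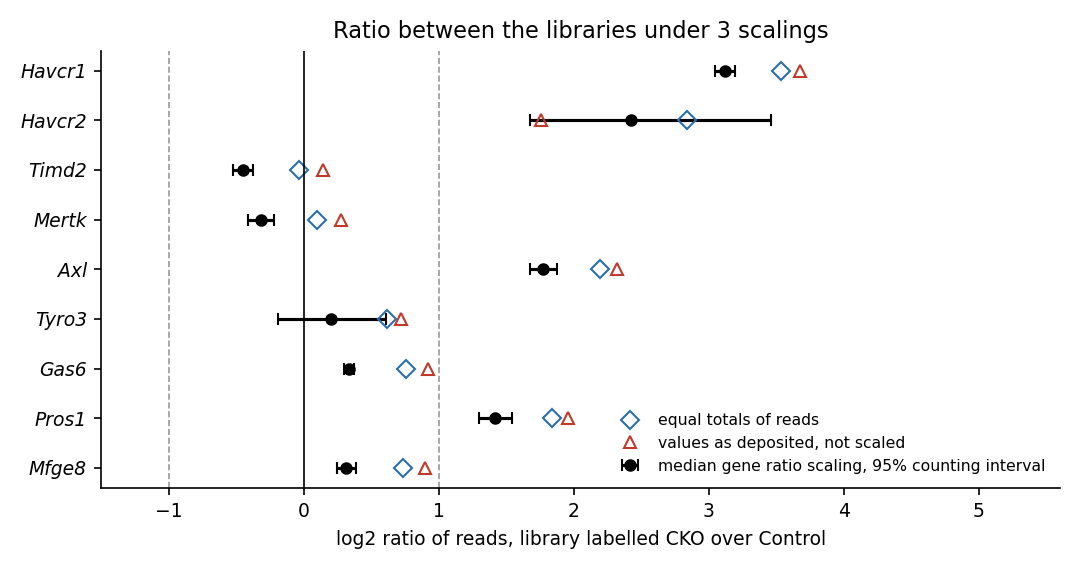
Log2 ratio of CKO over control for each of the 9 genes (x axis): filled points use the median gene ratio, with bars for the 95% counting interval, and open symbols use equal totals or the values as deposited. Havcr1, Havcr2, Axl and Pros1 lie past the dashed 2-fold line under all 3, whereas Mertk moves from -0.32 to 0.10 and 0.27, and Timd2 from -0.45 to -0.033 and 0.14.

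Levels of different genes were compared per length, as unscaled reads per kb of the longest annotated transcript within a library. In the control library Gas6 was highest at 3592 reads per kb, followed by Mfge8 at 1137, Timd2 at 1022 and Havcr1 at 807. Mertk, Axl, Pros1, Tyro3 and Havcr2 followed, from 371 for Mertk down to 4.78 for Havcr2. In the library labelled CKO Havcr1 was first at 10508 reads per kb, ahead of Gas6 at 6794 and Mfge8 at 2123. Havcr1 moved from place 4 to place 1 among the 9 genes, and from rank 2688 to rank 202 among the 16210 genes that passed the filter and had a length.

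Further down the CKO order came Timd2 at 1120 reads per kb, Axl at 1110, Pros1 at 810 and Mertk at 447. Axl and Pros1 both stood above Mertk in the library labelled CKO and below it in the control library. The counting intervals of neighbours in the order overlapped for Axl and Pros1 in the control library, and for Timd2 and Axl and for Havcr2 and Tyro3 in the library labelled CKO. Ligands held 66.9% (control) and 42.3% (library labelled CKO) of the reads per kb of the 9 genes. The TIM receptors held 24.9% and 50.8%, and the TAM kinases 8.23% and 6.92%. These are shares of 1 sum, to which Havcr1 alone gave 10508 reads per kb in the library labelled CKO. Before scaling, ligands summed to 4931 (control) and 9727 (library labelled CKO) reads per kb. The TAM kinases summed to 606 and 1589, and the TIM receptors to 1834 and 11670. A lower share thus did not mean fewer reads per kb.

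**Figure D4:**
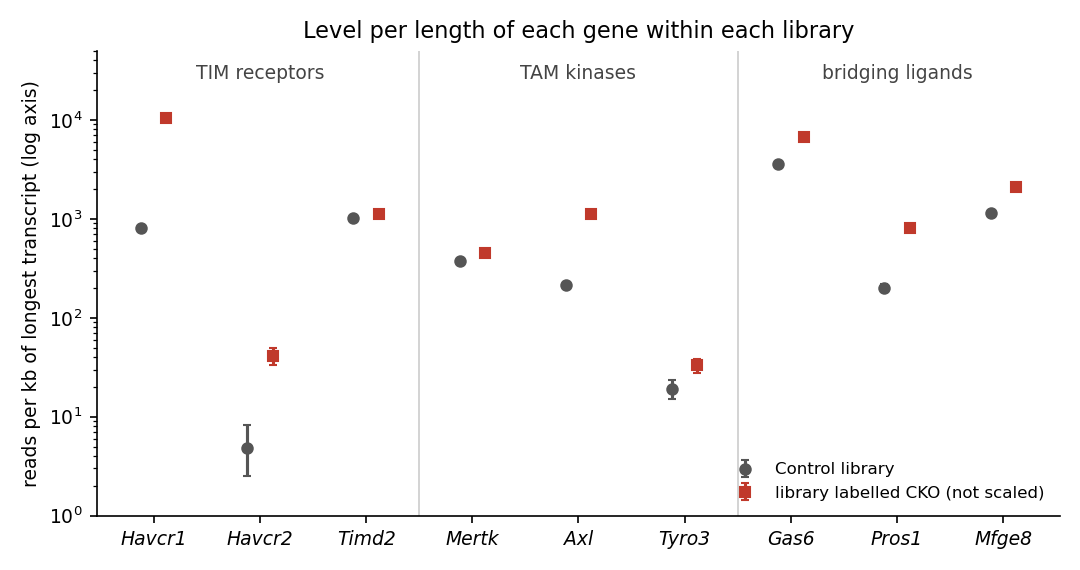
Reads per kb of the longest transcript (log axis) for each of the 9 genes, with grey circles for the Control library, red squares for the library labelled CKO before scaling, and bars for the 95% Poisson interval. Gas6 leads in the control library at 3592 and Havcr1 in the library labelled CKO at 10508; Havcr2 and Tyro3 are the lowest in both.

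To show sequence before the starts of the genes that were at least 2-fold higher, the 250 bases upstream of 1 RefSeq start of each were taken from the GRCm38.p6 table, which matched all 10 genes. They are written 5′ to 3′ on the strand of the gene, and none overlaps an annotated exon. Havcr1 has several starts, and the window shown lies at chr11:46750261-46750510, plus strand, inside the annotated span of the gene. Windows of its other starts lie at chr11:46739973-46740222, which overlaps annotated exons, and at chr11:46750918-46751167, which does not. Which start is used in these libraries was not tested. The others lie at chr11:46454681-46454930 (plus strand, Havcr2), chr7:25788734-25788983 (minus strand, Axl) and chr16:62854057-62854306 (plus strand, Pros1). Capitals mark matches to TGANTCA, the letters searched for AP-1, in Havcr2, and to TTCNNNGAA, the letters searched for STAT factors, in Pros1. N allows any base, and the Havcr2 match, TGATTCA, has T there.
Havcr1: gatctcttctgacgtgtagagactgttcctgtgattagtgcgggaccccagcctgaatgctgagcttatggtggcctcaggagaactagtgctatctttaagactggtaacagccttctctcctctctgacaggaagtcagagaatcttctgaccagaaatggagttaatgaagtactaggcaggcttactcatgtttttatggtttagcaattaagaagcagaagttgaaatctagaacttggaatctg
Havcr2: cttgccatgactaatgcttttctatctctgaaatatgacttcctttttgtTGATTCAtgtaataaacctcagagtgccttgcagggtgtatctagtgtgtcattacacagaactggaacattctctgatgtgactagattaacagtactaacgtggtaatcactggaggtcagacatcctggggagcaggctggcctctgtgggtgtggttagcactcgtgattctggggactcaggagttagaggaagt
Axl: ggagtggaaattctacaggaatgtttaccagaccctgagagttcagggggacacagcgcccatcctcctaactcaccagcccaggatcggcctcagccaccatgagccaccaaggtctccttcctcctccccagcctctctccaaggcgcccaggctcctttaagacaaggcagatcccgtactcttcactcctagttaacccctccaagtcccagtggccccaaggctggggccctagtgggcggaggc
Pros1: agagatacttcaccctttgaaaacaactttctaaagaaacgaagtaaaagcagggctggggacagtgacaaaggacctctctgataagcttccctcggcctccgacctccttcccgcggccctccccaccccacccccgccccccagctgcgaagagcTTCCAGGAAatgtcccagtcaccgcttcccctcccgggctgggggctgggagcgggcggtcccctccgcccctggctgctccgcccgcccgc

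Both strands of the upstream windows of all 10 genes were searched for the STAT letters TTCNNNGAA, the AP-1 letters TGANTCA, the TATA box letters TATAAA and the NF-Y letters CCAAT. TTCNNNGAA was present in Pros1, 92 bases before its start, and in 7.02% of 32851 windows of the same length. TGANTCA was present in Havcr2, 200 bases before its start, and in 6.75% of the windows. CCAAT was present in Timd4 and in 33.8% of the windows, and TATAAA in 0 of the 10 genes and 12.4% of the windows. A match describes letters in a window and not a bound site, and the Havcr1 and Axl windows shown held no match to these letters.

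Regnase-1, a relative of Regnase-2, cuts mRNA at stem-loops of the 3′ untranslated region whose loop reads pyrimidine, purine, pyrimidine. The longest annotated 3′ untranslated region of each of the 10 genes was searched for such a loop of 3 bases closed by 5 Watson-Crick pairs. There was 1 match, in Havcr2, 1138 bases after the stop codon at chr11:46480578-46480602 on the plus strand: cagactCTTCTTACAGAAGaaaaag, where capitals mark the stem and loop. Of 14292 genes that passed the filter and had such a region, 23.7% held a match. Havcr1, with a region of 965 bases, held no match to this form; stems with G-U pairs or mismatches were not searched, and these libraries hold no measure of binding.

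In the libraries as wholes, the genes with levels nearest to those of Havcr1, by Euclidean distance over log2(scaled reads + 1) in the 2 libraries, were Cd74, Cp, Adamts1, Cyp4a14 and Clu. Cd74, the invariant chain of MHC class II, was nearest at a distance of 0.69, with 2610 control reads and 23956 CKO reads. Cp encodes ceruloplasmin and had 2809 and 17933 reads, a log2 ratio of 2.09. Adamts1, a secreted protease, had 2049 and 12652 reads, a log2 ratio of 2.04. Cyp4a14 hydroxylates fatty acids and Clu encodes clusterin, a secreted chaperone. Their log2 ratios were 3.45 for Cyp4a14, from 976 and 16009 reads, and 3.67 for Clu, from 2070 and 39652 reads.

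The rest of the clearance pathway was read from lists of genes by step. In these lists, genes that passed 2-fold and are neither the highest, the lowest nor the most abundant of a list are named after their values were seen. Counts of these lists and of the marker lists below stand beside all genes, 13.4% higher and 5.35% lower by 2-fold or more. Higher genes in all numbered 2334 under the scaling used here, 3870 with equal totals of reads and 3574 with the values as deposited. With the deposited values scaled by the median gene ratio they numbered 1196. Of 15 other recognition receptors, 13 had a row and 12 passed the filter, with a median log2 ratio of 0.63, while Adgrb1 and Cd300lf were not analysed here. Higher past 2-fold were 4, Cd300lb, Cd300a at 1.60, Ager at 1.30 and Itgb3 at 1.05, and lower past 2-fold was Cd36. The count of higher genes was 7 with the values as deposited and 0 when these were scaled by the median gene ratio. Cd300lb, an activating myeloid receptor, had 6 control reads and 38 CKO reads, a log2 ratio of 1.91 (0.55 with the deposited values scaled by the median gene ratio), and passed the filter through the library labelled CKO alone. Cd36, a scavenger receptor and the most abundant of the list, had 23264 and 12578 reads, a log2 ratio of -1.47, and 0 genes of the list were at least 2-fold lower with the values as deposited.

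Of 8 other bridging molecules, 5 were higher past 2-fold and 1 lower past 2-fold, around a median log2 ratio of 1.94. The 5 were the chains of complement C1q, C1qa, C1qb at 2.67 and C1qc at 2.87, with Thbs1 at 2.05 and Anxa1 at 1.83. C1qa had 258 control reads and 3088 CKO reads, a log2 ratio of 2.99. Apoh, a plasma protein that binds anionic lipids, stood at 588 and 420 reads, with a log2 ratio of -1.07, and it was within 2-fold with equal totals of reads. Calr, the chaperone calreticulin and the most abundant of the list, stood at 23053 and 28646 reads, with a log2 ratio of -0.27, but 0.15 with equal totals of reads and 0.31 with the values as deposited.

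Of 12 genes of the engulfment machinery, 3 were at least 2-fold higher and 0 lower, with a median of 0.46. The 3 were Dock2, Rac2 at 2.09 and Vav1 at 1.80, the blood cell forms of the exchange factors and GTPase of this step. The count was 5 with equal totals of reads, where 3870 genes in all were at least 2-fold higher. Dock2 had 50 control reads and 344 CKO reads, a log2 ratio of 2.18. The widely expressed Rac1 was the lowest of the list, at -0.16 (5794 and 7756 reads), but at 0.25 with equal totals of reads and 0.42 with the values as deposited. Crk, the most abundant, stood at 5344 and 8496 reads, with a log2 ratio of 0.084.

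Of 20 genes of corpse digestion and lipid response, 2 were at least 2-fold higher and 0 lower, against 13.4% and 5.35% of all genes. The median was 0.030, and 4 were at least 2-fold higher with equal totals of reads, where 3870 genes in all were. Cybb, the oxidase subunit of phagocytes, had 154 control reads and 1387 CKO reads, a log2 ratio of 2.58. Abca1, the cholesterol exporter that engulfing cells raise, had 896 and 3950 reads, a log2 ratio of 1.55. Nr1h3, the sterol sensor LXR alpha, was the lowest at -0.91 (1868 and 1494 reads), and at -0.30 with the values as deposited. The most abundant, the lysosomal membrane protein gene Lamp1, stood at 45474 and 53365 reads, with a log2 ratio of -0.35, but 0.065 with equal totals of reads and 0.23 with the values as deposited.

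Of 9 genes of find-me and do-not-eat-me signals, 5 were at least 2-fold higher and 0 lower, with a median of 1.06. The 5 were Cx3cl1 at 1.06, Cx3cr1 at 2.39, Panx1, Sirpa at 1.21 and Cd24a. Panx1, whose channel releases nucleotides from dying cells, had 21 control reads and 181 CKO reads, a log2 ratio of 2.47, but 1.48 with the deposited values scaled by the median gene ratio, where Cx3cr1 stood at 2.08. Cd24a, the most abundant, had 4345 and 15659 reads, a log2 ratio of 1.26. Cd47, the ligand of Sirpa that restrains uptake, was the lowest at -0.16 (1731 and 2317 reads), but stood at 0.25 with equal totals of reads and 0.42 with the values as deposited.

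Of 7 genes that control phosphatidylserine exposure, 6 had a row, and 1 was at least 2-fold lower and 0 higher, with a median of -0.19 (0.22 with equal totals of reads, 0.50 with the values as deposited). Xkr4 was not analysed here. The lower gene was Atp11a, a flippase that returns the lipid to the inner leaflet. It had 89132 control reads and 36548 CKO reads, a log2 ratio of -1.87, and it was also the most abundant of the list. The scramblase gene Xkr8 was the highest, at 0.28 (94 and 172 reads).

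Of 8 genes of receptor shedding and ligand carboxylation, 1 was at least 2-fold higher and 0 lower, against 13.4% and 5.35% of all genes. The median was -0.090 (0.33 with equal totals of reads, 0.50 with the values as deposited). Rhbdf2, a partner of the sheddase Adam17, had 250 control reads and 914 CKO reads, a log2 ratio of 1.28. Vkorc1, which recycles the vitamin K needed to make Gas6 and protein S, was the lowest at -0.64 (1569 and 1508 reads). It stood at -0.22 with equal totals of reads and -0.041 with the values as deposited. Timp3, an inhibitor of metalloproteases and the most abundant of the list, stood at 68104 and 66717 reads, with a log2 ratio of -0.61. That ratio was -0.20 with equal totals of reads and -0.029 with the values as deposited.

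**Figure D5:**
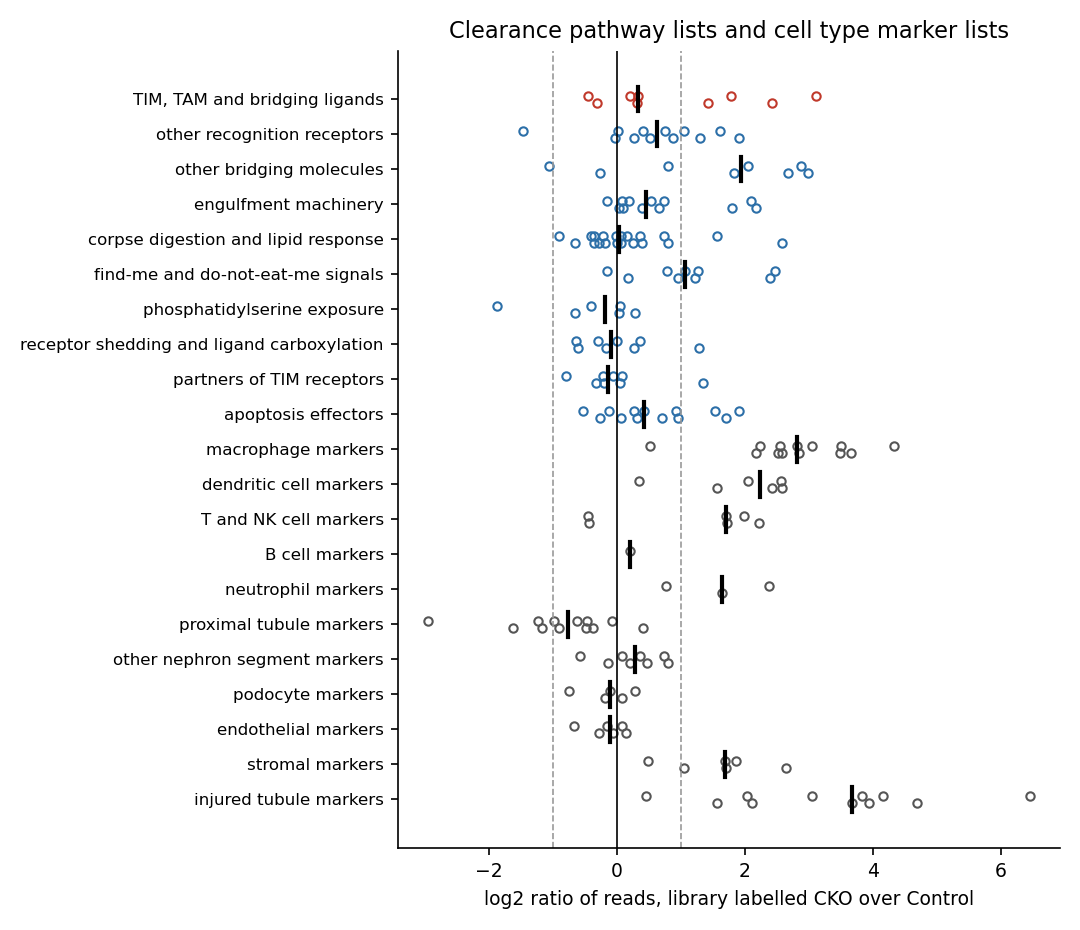
Log2 ratio of CKO over control (x axis) for each gene that passed the filter, by list, with a black bar at the list's median and dashed lines at 2-fold. Red marks the TIM, TAM and ligand genes with a median of 0.33, blue the pathway lists, and grey the cell type markers, from -0.76 for the proximal tubule to 3.67 for the injured tubule; equal totals of reads would move the median of all genes from 0.022 to 0.44.

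Markers of cell types differed between the libraries as well, and in bulk tissue fewer cells of a type and less RNA per cell cannot be told apart. Of 14 macrophage markers, 13 had a row, all 13 were higher and 12 at least 2-fold, with a median log2 ratio of 2.81. Their summed reads were 3665 (control) and 24267 (library labelled CKO). Lyz2, the most abundant, had 518 and 9836 reads, a log2 ratio of 3.66, Ms4a7 was the highest at 4.33 (2.10 with the deposited values scaled by the median gene ratio), and Csf1r the lowest at 0.51. The fewest control reads among them were the 6 of Ms4a7, which passed the filter through the library labelled CKO alone, and Cd163 was not analysed here. Their part in the values of Havcr2, Axl, C1qa, Dock2 and Cybb was not tested.

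Of 6 dendritic cell markers, 5 were at least 2-fold higher, with a median of 2.23 and summed reads of 446 and 1452. Of the 5, Flt3, Xcr1 and Ccr7, with 8, 7 and 2 control reads, passed the filter only through the library labelled CKO and so had to be higher; 3 of the list were at least 2-fold higher when 50 scaled reads were asked for, and 2 with the deposited values scaled by the median gene ratio. Itgax was the highest at a log2 ratio of 2.57, and Zbtb46, the most abundant, was the lowest at 0.35 with 345 and 660 reads. Of 9 T and NK cell markers, 7 had a row and 6 passed the filter, 4 of them (Cd3e at 1.72, Cd3g, Cd4 at 1.70 and Cd8a at 1.99) at least 2-fold higher, with a median of 1.71 and summed reads of 163 and 402. Of the 4, Cd3e and Cd8a, with 6 and 8 control reads, likewise passed only through that library, and the count was 2 at 50 scaled reads and 1 with the deposited values scaled. Cd3g was the highest at 2.22, from 13 and 96 reads (1.05 with the deposited values scaled), and Ncr1 the lowest at -0.46, from 15 and 16 reads, but at 0.42 with the values as deposited. Trac, the most abundant with 99 and 109 reads, had a log2 ratio of -0.44 (interval -0.85 to -0.039), but 0.26 with the values as deposited. Cd3d and Cd8b1 were not analysed here. Their part in the value of Havcr2 was not tested.

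Of 5 B cell markers, only Cd79b had a row, at 0.21 (23 and 40 reads). Cd79a, Ms4a1 and Pax5 were not analysed here. Of 6 neutrophil markers, 3 had a row and Ly6g, Retnlg and Mmp8 were not analysed here, with summed reads of 42 and 260 and a median of 1.64. Csf3r, the most abundant, was the highest at 2.37 (1.43 with the deposited values scaled) and S100a8 the lowest at 0.77, from 7 and 19 reads and past the filter through the library labelled CKO alone. At least 2-fold higher were 2 of the 3, but 1 at 50 scaled reads or with the deposited values scaled. These cells were thus read from few markers and few reads. With the deposited values scaled by the median gene ratio, the medians were 0.90 for dendritic cells, 0.47 for T and NK cells and 0.69 for neutrophils.

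Stromal markers were higher too, 5 of 6 by at least 2-fold, with a median of 1.69 and summed reads of 4593 (control) and 17727 (library labelled CKO). Col1a1 was the highest at 2.65 and Pdgfrb the lowest at 0.48, and Dcn, the most abundant, had 1291 and 6232 reads, a log2 ratio of 1.69. Their part in the values of Axl and Pros1 was not tested. Of 6 endothelial markers, 0 were past 2-fold in either direction, with a median of -0.11 (0.31 with equal totals of reads, 0.47 with the values as deposited) and summed reads of 9972 and 13320. Emcn was the highest at 0.14, and Kdr, the most abundant, the lowest at -0.67 (-0.070 with the values as deposited).

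The libraries carried the markers of kidney tubule. Of 12 proximal tubule markers, 4 (Slc34a1 at -1.17, Slc22a6 at -1.62, Slc27a2 at -1.23 and Slc7a13) were at least 2-fold lower and 0 higher, with a median of -0.76 and summed reads of 662257 and 508356. With equal totals of reads 2 were at least 2-fold lower, where 437 genes in all were, and the median was -0.35. Slc27a2, the most abundant, had 157696 and 100638 reads, Slc7a13 was the lowest at -2.95 and Slc5a12 the highest at 0.41. Of 12 injured tubule markers, 11 had a row, all 11 were higher and 10 at least 2-fold, with a median of 3.67 and summed reads of 25066 and 485520. Lcn2 was the highest at 6.45, from 28 and 3797 reads (5.36 with the deposited values scaled by the median gene ratio), Krt8 the lowest at 0.45, and Spp1 the most abundant with 15360 and 412220 reads, a log2 ratio of 4.16. Krt20 was not analysed here, and the part of tubule cell state in the values of Havcr1 and Timd2 was not tested.

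Of 8 markers of other nephron segments, 0 were past 2-fold in either direction, with a median of 0.28 and summed reads of 148767 and 276007. With equal totals of reads 2 were at least 2-fold higher, where 3870 genes in all were. Aqp2 was the highest at 0.79, Calb1 the lowest at -0.58 (0.0071 with the values as deposited), and Umod the most abundant with 90047 and 187056 reads, a log2 ratio of 0.47. Of 5 podocyte markers, 0 were past 2-fold, with a median of -0.11 (0.30 with equal totals of reads, 0.48 with the values as deposited) and summed reads of 8426 and 12034. Synpo was the highest at 0.28, and Podxl the most abundant with 4782 and 7595 reads, a log2 ratio of 0.082.

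The scaling set how many genes lay on each side. Past 2-fold lay 2334 higher genes and 934 lower genes, so 71.4% of these were higher. Equal totals of reads moved the median log2 ratio of all genes to 0.44 and the share to 89.9%, and the values as deposited moved them to 0.57 and 96.5%. Havcr1, Havcr2, Axl and Pros1 were at least 2-fold higher under these settings too.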

How the data were processed

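RNA of whole kidney was sequenced with a stranded mRNA kit, with 1 library per group. The submitters' processing notes name STAR 2.7.3a, HTSeq, Cufflinks 2.2.1 and the build mm10; the authors name DESeq2 for normalization. The deposited values were taken as a score: whole numbers per gene with a constant added, not scaled between libraries. They carry the name of normalized counts, so the lack of scaling is inferred. The constants 34 and 50 (column minimum minus 1) were subtracted to give reads, which is an inference.

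CKO reads were scaled by the median gene ratio, a pseudocount of 1 was added, and a gene needed 10 or more scaled reads in either library. A gene was counted as higher or lower at 2-fold. Intervals are 95% Clopper-Pearson for folds, exact conditional for ratios of genes and Poisson for reads per kb, and cover counting error only. No test between groups was possible.

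The members and lists were chosen with earlier results of these data known. All members were named, with the highest, lowest and most abundant gene of each list, the 5 genes nearest to Havcr1, and Zc3h12b; a few results that this rule or the data gave are not reported here. Bat3 and Bag6 of 1 list are the same gene. Lengths and positions are from GENCODE M21 (GRCm38, the build called mm10), with length from the longest transcript of each symbol. Ratios of genes within a library, upstream letters, stem-loops, shared words and neighbours were added after the data were seen. The steps were tested on simulated data. Alternatives were 3 other scalings, other constants, pseudocounts of 0.1 and 10, filters and thresholds, and, added after seeing the data, a median ratio over genes with at least 100 reads in both libraries. Python 3.11.15, numpy 2.4.6, pandas 2.3.3, scipy 1.17.1 and matplotlib 3.10.9 were used.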

Additional observations from a re-analysis of the deposited data

How the results depend on the processing

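Havcr1, Havcr2, Axl and Pros1 were at least 2-fold higher under every alternative scaling, constant and pseudocount, with log2 ratios from 3.09 to 3.68 for Havcr1, 1.19 to 2.84 for Havcr2, 1.75 to 2.32 for Axl and 1.39 to 1.96 for Pros1. No gene among the 9 was at least 2-fold lower under these alternatives. With equal totals of reads the log2 ratios were 3.54 for Havcr1, -0.033 for Timd2, 0.10 for Mertk, 2.19 for Axl, 0.62 for Tyro3, 0.75 for Gas6, 1.84 for Pros1 and 0.73 for Mfge8. With the values as deposited and no scaling they were 3.68 for Havcr1, 0.14 for Timd2, 0.27 for Mertk, 2.32 for Axl, 0.72 for Tyro3, 0.92 for Gas6, 1.96 for Pros1 and 0.90 for Mfge8. Each of these ratios was higher than under the median gene ratio, whereas Havcr2 was lower with the values as deposited, at 1.75; Mertk changed direction under both settings and Timd2 under the second. With the values as deposited and the median gene ratio, Havcr2 was at 1.19, since the constants are large beside its reads. With the ratio over genes of at least 100 reads, added after seeing the data, Gas6 was at 0.39.

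Against 2334 genes higher and 934 lower, 3870 and 437 were counted with equal totals, 3574 and 131 from the deposited values, 1196 and 463 with these scaled, 3801 and 2423 at 1.5-fold, and 749 and 166 at 4-fold. At least 50 scaled reads left 1614 higher and 617 lower. At 4-fold, 2 of the 9 genes, Havcr1 and Havcr2, were higher. Without the constants subtracted, reads per kb were 17.3 (control) and 59.2 (CKO) for Havcr2, and 26.7 and 44.2 for Tyro3. Of 520 list counts under alternatives, 46 moved by over 1.5 times. The ratios between genes within a library stayed within their intervals in all 10 recomputations.

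No paired analysis was possible because 1 library per group leaves nothing to pair. Depth limits Havcr2 and Tyro3 most, whose control reads were 13 and 85. An interval from 1 library says nothing of the spread between mice, and animal, preparation and treatment cannot be told apart.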

Other observations

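Of 8 genes for reported partners of TIM receptors, 1 was at least 2-fold higher and 0 lower, against 13.4% and 5.35% of all genes. The median log2 ratio was -0.13 (0.28 with equal totals of reads, 0.45 with the values as deposited). Lgals9, which encodes galectin 9, a ligand described for TIM-3, had 345 control reads and 1316 CKO reads, a log2 ratio of 1.34. Fth1, the heavy chain of the ferritin that TIM-2 takes up, was the most abundant and the lowest, at -0.80 (131938 and 113587 reads). It stood at -0.38 with equal totals of reads and -0.22 with the values as deposited.

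Of 13 apoptosis effectors, 3 were at least 2-fold higher and 0 lower, against 13.4% and 5.35% of all genes, with a median of 0.42. Pmaip1, which encodes the BH3-only protein NOXA, was the highest with 405 control reads and 2288 CKO reads, a log2 ratio of 1.91. Bbc3 and Tnfrsf10b, at 1.70 and 1.53, were named after their values were seen. Bid, the most abundant, was the lowest at -0.52 (2007 and 2092 reads), but stood at 0.07 with the values as deposited. With equal totals of reads 6 of the 13 were at least 2-fold higher, while such genes in all went from 2334 to 3870.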
